A study of Rattus norvegicus with 44 samples.

Results

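Ggt1 and Gstp1 encode 2 glutathione enzymes of the rat liver that were followed here across every dose, compound and time of a toxicity study. All probe sets whose only annotated gene symbol was Ggt1 or Gstp1 were taken. These were 3 of 8740 probe sets on the array once control probe sets were left out. Ggt1 had 1 (M33822) and Gstp1 had 2 (AI012589, the brighter, and X02904). The pair had been selected on these same signals, high after 336 h of dosing and not after 24 h, so their differences from vehicle are given as a description, without a test.

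Liver RNA of eight-week-old male Wistar rats was hybridised to 44 Affymetrix arrays, 1 per sample, in 11 groups from 4 studies. Rats had been gavaged once daily with the compound R1 or R2, known by code only, or with citric acid buffer as vehicle, and a slice of the left lateral lobe was taken 24 h after the last dose. Study 1 covered 24 h, with vehicle (n = 3) and R1 at 10 (n = 4), 30 (n = 3) and 100 mg/kg/day (n = 3). Study 4 covered 24 h, with R2 at 300 mg/kg/day (n = 5) and its vehicle (n = 4). Study 2 covered 336 h (2 weeks), with R1 at 20 (n = 5) and 100 mg/kg/day (n = 4) and its vehicle (n = 4). Study 3 covered 336 h, with R1 at 30 mg/kg/day (n = 4) and its vehicle (n = 5). R2 was measured at 24 h only. Each treated group was set against the vehicle of its own study, and because the 24 h and 336 h groups came from different studies, time and study cannot be told apart. The labels do not say whether each array came from an animal of its own, so the p-values below speak only of differences among arrays, part of which may be technical.

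Signals are intensities on a linear scale. All arrays had the same sorted values (median 14.5, range 0.056 to 13236), so signals are relative to the rest of each array. Arrays of 1 group correlated at 0.924 to 0.974 over the tested probe sets. A probe set was tested if at least 1 group mean reached 9.17, the 40th percentile of all values, which is called the filter level below. This left 6361 probe sets of 3696 genes, all 3 members among them.

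Gamma-glutamyl transferase 1, the product of Ggt1, sits on the outer cell surface and starts the breakdown of extracellular glutathione by cleaving its gamma-glutamyl bond. Glutathione transferase pi 1, the product of Gstp1, joins glutathione to reactive electrophiles in the cytosol. In the adult rat, hepatocytes have little of either enzyme and bile duct cells have more. Both enzymes have long been used as stains for altered hepatocyte foci and nodules in rat liver carcinogenesis. The arrays measured whole liver slices, so a change in the number of cells of a type and a change in RNA per cell cannot be told apart, and the data hold no view of single foci or nodules.

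Rat Gstp1 is known for an enhancer that binds AP-1 and NRF2 proteins, which lies farther upstream than the windows shown here. The promoter windows of both genes, from RefSeq on GRCr8, show which such elements lie next to the start. Each runs from 250 bases before to 50 bases after a RefSeq start. In capitals are matches to the AP-1 element TGANTCA, the antioxidant response core TGACNNNGC and the GC box GGGCGG, searched on both strands.
Gstp1 (chr1:210769656-210769955, minus strand): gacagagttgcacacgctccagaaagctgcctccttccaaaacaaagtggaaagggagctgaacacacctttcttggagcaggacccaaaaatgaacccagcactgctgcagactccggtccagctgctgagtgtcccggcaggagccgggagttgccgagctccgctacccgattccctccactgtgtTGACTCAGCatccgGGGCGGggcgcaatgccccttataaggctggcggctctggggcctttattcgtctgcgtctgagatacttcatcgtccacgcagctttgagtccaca
Ggt1 (chr20:13095055-13095354, minus strand): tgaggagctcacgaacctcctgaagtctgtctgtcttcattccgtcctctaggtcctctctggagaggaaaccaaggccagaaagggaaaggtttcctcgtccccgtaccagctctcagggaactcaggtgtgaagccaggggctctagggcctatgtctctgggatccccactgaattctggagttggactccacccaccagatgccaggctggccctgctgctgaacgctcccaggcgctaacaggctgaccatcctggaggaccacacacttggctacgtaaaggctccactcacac
The Gstp1 window held an AP-1 match at -61 to -55 from the start, which lies inside an antioxidant core match at -61 to -53, and a GC box at -47 to -42. None of these letters was in the Ggt1 window. Of 33469 rat promoter windows of this length, 7.33% held the AP-1 element, 12.1% the antioxidant core and 33.1% the GC box. Gstp1 spans 3006 bases of chromosome 1 (210767237 to 210770242) with 2 RefSeq transcripts. Ggt1 spans 29411 bases of chromosome 20 (13074141 to 13103551) with 10 RefSeq transcripts, and both windows are that of 1 start among several: the Gstp1 window lies inside the span of the gene, so another start lies upstream of it. RefSeq also lists Gstp1 pseudogenes, whose share in the signal of the Gstp1 probe sets was not tested.

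Ggt1 was near the bottom of the intensity range on every 24 h array and on every vehicle array, and well above the filter level on every array of rats given R1 for 336 h. In study 2 its signal was 88.7, 44.1, 105.5, 55.2 and 65.3 with R1 at 20 mg/kg/day and 143.0, 56.2, 94.6 and 92.1 at 100 mg/kg/day, against 2.37, 1.75, 2.40 and 1.04 in vehicle livers. In study 3 the signal was 81.5, 74.8, 125.5 and 75.9 with R1 at 30 mg/kg/day, against 1.86, 1.24, 4.06, 1.25 and 1.55 in vehicle livers. No treated 336 h array overlapped its vehicle arrays. The lowest treated signal was 18.3, 18.5 and 23.4 times the highest vehicle signal at 20, 30 and 100 mg/kg/day. The means were 71.7 ± 25.1 (SD, n = 5) at 20, 89.5 ± 24.2 (n = 4) at 30 and 96.5 ± 35.6 (n = 4) at 100 mg/kg/day, against 1.89 ± 0.644 (n = 4) in study 2 vehicle and 1.99 ± 1.18 (n = 5) in study 3 vehicle livers.

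On the log2 scale with an offset of 2.9 added to each signal, Ggt1 differed from vehicle by 3.91 ± 0.25 (SE) at 20, 4.23 ± 0.25 at 30 and 4.31 ± 0.26 at 100 mg/kg/day. By size of increase it was the 7th, 3rd and 12th of 6361 probe sets in these comparisons. The vehicle signal lay below the filter level, so the fold depends on how low signals are treated. Against the filter level itself, the treated means were 7.82, 9.75 and 10.5 times as high at 20, 30 and 100 mg/kg/day. The ratios of mean signals were 38.0, 44.9 and 51.1.

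At 24 h no group reached the filter level for Ggt1. In study 1 the signal was 3.98, 3.10 and 2.17 in vehicle livers, 1.41, 1.50, 1.98 and 1.73 with R1 at 10 mg/kg/day, 2.23, 2.90 and 2.12 at 30 and 2.04, 4.24 and 2.88 at 100 mg/kg/day. With R2 at 300 mg/kg/day it was 1.87, 1.86, 2.57, 2.22 and 4.23, against 2.02, 2.95, 1.23 and 0.800 in study 4 vehicle livers. The R1 10 mg/kg/day arrays lay below all study 1 vehicle arrays, with all of these signals under the filter level, and the other 24 h groups overlapped their vehicle. The share of all probe sets with such a downward separation was not computed, so nothing is read from it. For R1 the log2 differences were -0.39 ± 0.28 (SE), -0.16 ± 0.30 and -0.01 ± 0.30 at 10, 30 and 100 mg/kg/day, and for R2 the difference was 0.23 ± 0.25.

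**Figure D1:**
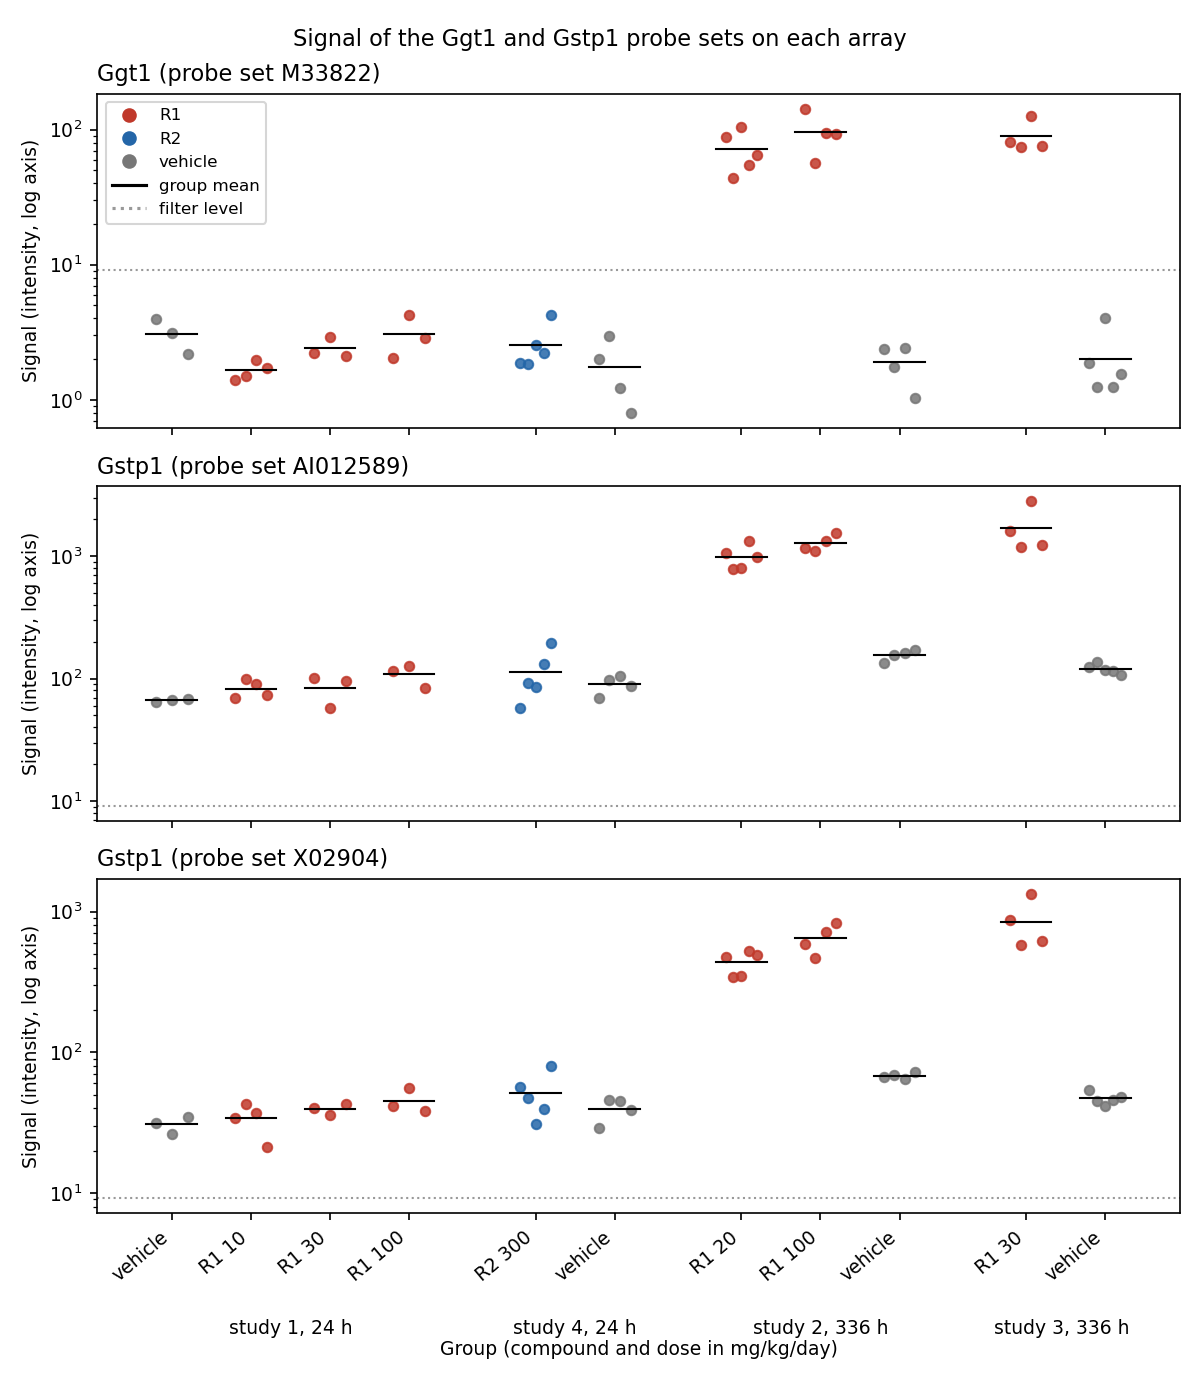
Signal (intensity, log axis) of Ggt1 and of both Gstp1 probe sets on each of the 44 arrays, by group; points are arrays, short lines are group means, and the dotted line is the filter level of 9.17. The 13 arrays of rats given R1 for 336 h stand above all others in each panel, with Ggt1 between 44.1 and 143.0 there and no higher than 4.24 elsewhere.

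Gstp1 was measurable on every array and was highest on the same arrays. In study 2 the AI012589 probe set read 1069, 788.4, 796.7, 1335 and 979.3 with R1 at 20 mg/kg/day and 1173, 1099, 1335 and 1533 at 100 mg/kg/day, against 133.9, 156.4, 161.8 and 170.8 in vehicle livers. In study 3 it read 1592, 1199, 2807 and 1233 with R1 at 30 mg/kg/day, against 124.5, 137.7, 117.7, 115.2 and 107.7 in vehicle livers. Treated and vehicle arrays were apart in all 3 comparisons, the lowest treated signal being 4.62, 8.70 and 6.44 times the highest vehicle signal at 20, 30 and 100 mg/kg/day. The log2 difference was 2.63 ± 0.23 (SE) at 20, 3.71 ± 0.23 at 30 and 3.02 ± 0.25 at 100 mg/kg/day, with ratios of mean signals of 6.38, 14.2 and 8.25. By size of increase the probe set was the 20th, 10th and 41st of 6361.

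The X02904 probe set of Gstp1 read lower and showed the same pattern. In study 2 it gave 473.1, 341.5, 347.4, 526.4 and 491.0 with R1 at 20 mg/kg/day and 585.5, 469.5, 717.5 and 830.2 at 100 mg/kg/day, against 66.9, 69.3, 64.5 and 71.8 in vehicle livers. In study 3 it gave 865.3, 575.5, 1332 and 622.2 with R1 at 30 mg/kg/day, against 53.9, 45.3, 41.3, 46.0 and 48.3 in vehicle livers. The groups did not overlap, and the log2 differences were 2.60 ± 0.22 (SE) at 20, 4.02 ± 0.22 at 30 and 3.17 ± 0.23 at 100 mg/kg/day. Over the 44 arrays the signal of AI012589 was 1.02 to 3.43 times that of X02904 (median 2.26). Both probe sets placed the 30 mg/kg/day group, the only treated group of study 3, furthest from its vehicle, whereas Ggt1 had its largest difference at 100 mg/kg/day.

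At 24 h the Gstp1 signals of treated livers lay at or slightly above those of vehicle livers. In study 1 AI012589 read 64.5, 67.0 and 67.7 in vehicle livers, 69.6, 98.7, 90.1 and 73.1 with R1 at 10 mg/kg/day, 100.8, 57.3 and 95.4 at 30 and 115.2, 125.8 and 83.3 at 100 mg/kg/day. All arrays at 10 and at 100 mg/kg/day were above all vehicle arrays. Such a separation upwards was met by 5.68% of the tested probe sets at 10 mg/kg/day, 8.27% at 30 and 12.3% at 100 mg/kg/day. The log2 differences were 0.29 ± 0.27 (SE), 0.30 ± 0.28 and 0.66 ± 0.28 at 10, 30 and 100 mg/kg/day. X02904 read 31.4, 26.4 and 34.8 in vehicle livers and 41.6, 55.5 and 38.1 at 100 mg/kg/day, again without overlap. At 30 mg/kg/day it was also above all vehicle arrays, with 40.3, 35.6 and 42.7, and at 10 mg/kg/day it overlapped them, with 34.3, 42.9, 36.9 and 21.3.

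With R2 at 300 mg/kg/day for 24 h both Gstp1 probe sets overlapped their vehicle. AI012589 read 57.8, 91.3, 85.3, 132.1 and 194.8 with R2, against 69.5, 97.8, 105.5 and 86.8 in vehicle livers. X02904 read 56.6, 47.4, 30.8, 39.7 and 79.9 with R2, against 28.7, 45.9, 45.1 and 39.0 in vehicle livers. R2 replicate 5 was the highest for Gstp1 on both probe sets and for Ggt1. The log2 differences were 0.21 ± 0.23 (SE) for AI012589 and 0.29 ± 0.22 for X02904. Without replicate 5 the difference of AI012589 was -0.01.

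In the 336 h comparisons, such an upward separation from vehicle was met by 3.96% of the tested probe sets at 20 mg/kg/day, 6.76% at 30 and 6.82% at 100 mg/kg/day. All 3 probe sets of Ggt1 and Gstp1 met it in each comparison, and since they had been chosen for these values nothing further is read from that count. With R2 the share was 6.78%, and none of the 3 met it.

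The excess of the 336 h difference over the 24 h difference could be formed at 2 doses of R1. At 30 mg/kg/day it was 4.40 ± 0.39 (SE, log2) for Ggt1, 3.41 ± 0.37 for AI012589 and 3.69 ± 0.35 for X02904. At 100 mg/kg/day it was 4.33 ± 0.40, 2.36 ± 0.37 and 2.67 ± 0.36. The pair had been chosen on this excess, and for Ggt1 its size depends on the offset, being 5.26 at 30 mg/kg/day with the 5th percentile of all values as offset and 3.20 with the 40th.

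**Figure D2:**
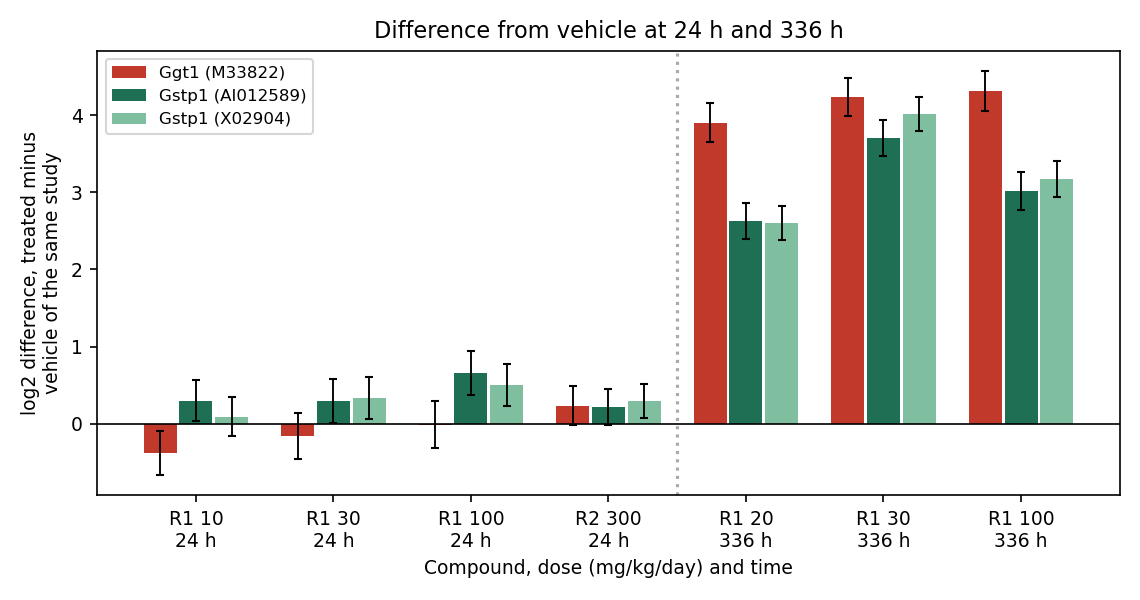
Difference from the vehicle of the same study (log2, y axis) for Ggt1 and both Gstp1 probe sets in the 7 comparisons of a dose with vehicle (x axis). Bars are fitted differences and whiskers their SE. At 24 h the differences lie between -0.39 and 0.66, and at 336 h between 2.60 and 4.31.

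Ordered by mean signal, the 3 groups given R1 for 336 h stood at the top for each probe set, followed by a gap without overlap. For Ggt1 their order was 100, 30 and 20 mg/kg/day and for both Gstp1 probe sets 30, 100 and 20 mg/kg/day, and neighbours in these orders overlapped. The comparison of doses within study 2 was tested with limma, adjusted by Benjamini-Hochberg over the 6361 probe sets. At 336 h, R1 at 100 against 20 mg/kg/day gave a log2 difference of 0.41 for Ggt1 (95% interval -0.10 to 0.91, adjusted p = 0.559), 0.39 for AI012589 (-0.09 to 0.86, adjusted p = 0.549) and 0.57 for X02904 (0.11 to 1.02, adjusted p = 0.203). None passed, and the upper end of the X02904 interval allows a log2 difference of up to 1.02. At 24 h, 100 minus 10 mg/kg/day gave 0.37 for AI012589 (95% interval -0.17 to 0.90) and 0.41 for X02904 (-0.11 to 0.92). These are given without a test, because the genes had been chosen for showing no clear difference at 24 h, and Ggt1 was under the filter level in both of these groups. Of all probe sets, 4.06% passed between the 336 h doses and 3.98% between the 24 h doses.

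Vehicle livers differed between studies in many probe sets, 17.8% of them between studies 3 and 2 (336 h) and 5.64% between studies 4 and 1 (24 h). The members did not pass, which for Ggt1 says little, since its vehicle signals were under the filter level. Study 3 minus study 2 gave log2 differences of 0.01 for Ggt1 (95% interval -0.49 to 0.52, limma adjusted p = 0.980), -0.36 for AI012589 (-0.83 to 0.11, adjusted p = 0.316) and -0.51 for X02904 (-0.97 to -0.06, adjusted p = 0.105). Study 4 minus study 1 gave -0.38 for Ggt1 (-0.95 to 0.20, limma adjusted p = 0.503), 0.41 for AI012589 (-0.13 to 0.94, adjusted p = 0.432) and 0.32 for X02904 (-0.19 to 0.84, adjusted p = 0.524). The mean vehicle signals that enter the 336 h differences were 120.5 ± 11.3 (SD, n = 5) in study 3 and 155.7 ± 15.7 (n = 4) in study 2 for AI012589.

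Ggt1 was under the filter level on 31 of the 44 arrays, so its deviations from group means there say little about covariation with Gstp1. The deviations of Ggt1 and Gstp1 AI012589 from group means over the 44 arrays gave Pearson r = 0.243 (permutation p = 0.113, adjusted p = 0.231 over 3 relations) and Spearman rho = 0.108 (permutation p = 0.483). Without the 2 arrays farthest from the median of Ggt1, r was 0.360 (permutation p = 0.0192), so the value depends on single arrays. Within studies r was -0.104 in study 1 (13 arrays), -0.058 in study 2 (13), 0.625 in study 3 (9) and 0.515 in study 4 (9), with no test. Over the 13 arrays of rats given R1 for 336 h, the only ones with Ggt1 above the filter level, r was 0.318, also with no test.

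Over the 44 arrays, with each array's log2 signal taken minus its study's vehicle mean, the genes most like Ggt1 among 3695 were Gstp1 (r = 0.954), Gsta4 (0.938), Gsta3 (0.931), Bex3 (0.929), Nipal2 (0.901), App (0.894), Defb1 (0.889), Abcc3 (0.880), Tsx (0.873) and Nenf (0.863). Gsta3 and Gsta4 encode alpha-class glutathione transferases. App encodes the amyloid precursor protein, Defb1 a beta-defensin and Abcc3 an exporter of conjugates across the basolateral membrane. The genes most like Gstp1 were Ggt1 (0.949), Defb1 (0.907), Abcc3 (0.905), Gsta3 (0.888), Bex3 (0.887), App (0.887), Gsta4 (0.877), Nipal2 (0.850), Acsm2 (0.847) and Mep1a (0.841). Bex3, Nipal2, App, Defb1, Abcc3, Gsta3 and Gsta4 were named for both. Each gene was taken by its most correlated probe set, which for Gstp1 was X02904. Ggt1 and Gstp1 had been paired for the same 336 h pattern, so their place on each other's list restates that choice. The genes named for both follow from the same choice, and all r values describe arrays that share groups and vehicles.

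Other glutathione transferases, which use the same cosubstrate as Gstp1, rose in part in the 336 h comparisons. Of 15 tested, limma called 7 higher and none lower with R1 at 20 mg/kg/day, 6 higher and 1 lower at 30, and 8 higher and 1 lower at 100 mg/kg/day. Over all 3696 genes 2.52%, 5.01% and 4.95% were called higher and 1.76%, 5.93% and 5.01% lower in these comparisons. At an unadjusted p under 0.05, 1 was lower at 20 mg/kg/day. The list's median log2 difference was 0.48, -0.04 and 0.65 at 20, 30 and 100 mg/kg/day, and that of all genes between -0.02 and -0.00. Gsta3 had the largest rise, by 4.65 ± 0.38 (SE, log2) at 20 mg/kg/day (limma adjusted p = 1.47e-12), 3.62 ± 0.38 at 30 (adjusted p = 1.13e-09) and 4.76 ± 0.40 at 100 (adjusted p = 9.18e-13). Its signal averaged 1318 ± 246 (SD, n = 5) at 20 and 1424 ± 257 (n = 4) at 100 mg/kg/day, against 51.9 ± 20.0 (n = 4) in study 2 vehicle livers. In study 3 it averaged 1556 ± 380 (n = 4) at 30 mg/kg/day, against 128.2 ± 46.6 (n = 5) in vehicle livers. Gsta4, whose product acts on lipid peroxidation aldehydes, rose by 1.30, 1.33 and 1.79 at 20, 30 and 100 mg/kg/day. Gstm7 fell by 1.32 at 30 mg/kg/day. Closely related transferases of this array may share signal between their probe sets.

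After 24 h of R1 none of the 15 transferases was called by limma at 10, 30 or 100 mg/kg/day, where 0.758%, 1.14% and 3.19% of all genes were called higher and 0.271%, 0.189% and 2.79% lower. At an unadjusted p under 0.05, 2, 4 and 3 were higher and 0, 1 and 3 lower. Without study 1 vehicle replicate 3, 1 was called higher and 1 lower at 30 mg/kg/day, without R1 30 replicate 1, 1 was higher, and without R1 100 replicate 2, 2 were higher and 1 lower at 100 mg/kg/day. The brightest probe set of Gsta3 had log2 differences of 0.81, 1.1 and 1.3 after 24 h of R1 at 10, 30 and 100 mg/kg/day. They did not pass (limma adjusted p = 0.537, 0.333 and 0.0846), and another probe set had -0.17, 0.28 and 0.71. In simulated data 41%, 41% and 29% of 2-fold changes were called in these comparisons, and 93%, 88% and 90% of 4-fold changes. The lack of a call therefore does not show that a gene had no 2-fold change. With R2, 5 of the 15 transferases were lower and 1 higher, against 8.79% and 6.63% of all genes. The 5 were 3 without study 4 vehicle replicate 2 or R2 replicate 3, and 2 were higher without vehicle replicate 1 or R2 replicate 1. Mgst3, a microsomal transferase, fell by 2.03 ± 0.24 (SE, log2) and Gsta4 by 0.83 ± 0.17 with R2. For Gsta4 only 1 of 2 probe sets was called, and the other had -0.22. The 1 higher gene was Gsta3 (1.20 ± 0.38, limma adjusted p = 0.0235), a call that was lost when any of R2 replicates 1, 2 or 5 or vehicle replicates 3 or 4 was left out (adjusted p up to 0.130). Only 1 of its 3 probe sets was called. The call was also lost with their mean (0.67, limma adjusted p = 0.194) and with study 4 fitted alone (limma adjusted p = 0.071).

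Tested after the values had been seen, the excess of the 336 h over the 24 h difference passed limma's test for Gsta4 at both doses of R1 (1.96 ± 0.27, adjusted p = 8.75e-06 at 30, and 1.89 ± 0.28, adjusted p = 9.52e-06 at 100 mg/kg/day). For Gsta3 it was 3.46 ± 0.61 at 100 mg/kg/day (adjusted p = 0.00017) and 2.53 ± 0.60 at 30 (adjusted p = 0.0193). The call at 30 mg/kg/day was lost without study 1 vehicle replicate 1 or 3, R1 30 replicate 3 at 24 h or R1 30 replicate 3 at 336 h (highest adjusted p 0.125). At 30 mg/kg/day 0.514% of all genes had a higher and 0.433% a lower difference at 336 h, and at 100 mg/kg/day 2.57% and 2.52%.

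Genes that make, recycle or cleave glutathione were called at both times and in both directions. Of 14 tested, limma called 2 higher and none lower after 24 h of R1 at 10 and at 30 mg/kg/day, 4 higher and 1 lower at 100, and 5 higher and 4 lower with R2. After 336 h of R1, 0 were higher and 2 lower at 20 mg/kg/day, 4 higher and 2 lower at 30, and 2 higher and 1 lower at 100. Over all genes 0.758%, 1.14%, 3.19% and 6.63% were higher and 0.271%, 0.189%, 2.79% and 8.79% lower in the 24 h comparisons in that order, and 2.52%, 5.01% and 4.95% higher and 1.76%, 5.93% and 5.01% lower in the 336 h ones. At an unadjusted p under 0.05, 3 were higher and 4 lower at 20 mg/kg/day for 336 h, and 0 and 3 were lower after 24 h at 10 and 30 mg/kg/day. The count of 2 after 24 h at 10 mg/kg/day was 1 without study 1 vehicle replicate 2. At 20 mg/kg/day 1 was higher without R1 20 replicate 2, and 1 was lower without study 2 vehicle replicate 3 or 4 or R1 20 replicate 1 or 4. Gclc, the catalytic subunit of the rate-limiting ligase of glutathione synthesis, rose at 24 h by 1.40 (log2) with R1 at 30, by 1.38 at 100 mg/kg/day and by 1.05 with R2. At 336 h its differences of 0.11, 0.41 and 0.37 at 20, 30 and 100 mg/kg/day did not pass. Gsr, which reduces oxidised glutathione, rose at 24 h by 1.20, 1.40 and 1.51 at 10, 30 and 100 mg/kg/day and by 1.63 with R2, the call at 10 mg/kg/day being lost without study 1 vehicle replicate 2 (limma adjusted p = 0.0541). At 336 h Gsr rose by 1.59 and 1.12 at 30 and 100 mg/kg/day. At 20 mg/kg/day its brightest probe set had 0.64 and did not pass (limma adjusted p = 0.0586), but 2 of its 3 probe sets were called. Cth, which makes cysteine from cystathionine, fell by 1.58 at 100 mg/kg/day and by 2.09 with R2 at 24 h.

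Known targets of NRF2, the factor that binds antioxidant response elements, were called higher in part at both times. Of 18 tested, 3, 6 and 12 were called higher by limma after 24 h of R1 at 10, 30 and 100 mg/kg/day and 14 with R2, and none was called lower or was lower at an unadjusted p under 0.05. After 336 h of R1, 11, 13 and 13 were higher and 1, 0 and 1 lower at 20, 30 and 100 mg/kg/day, the same numbers lower as at an unadjusted p under 0.05. Over all genes 0.758%, 1.14% and 3.19% were higher after 24 h of R1, 6.63% with R2, and 2.52%, 5.01% and 4.95% after 336 h. The shares lower were 0.271%, 0.189% and 2.79% after 24 h of R1, 8.79% with R2, and 1.76%, 5.93% and 5.01% after 336 h. The list's median was 1.21 at 100 mg/kg/day and 1.05 with R2 at 24 h, and 1.32 and 1.23 at 30 and 100 mg/kg/day at 336 h. Hmox1, the stress-induced heme oxygenase, rose by 2.06 at 100 mg/kg/day and by 2.08 with R2 at 24 h. At 336 h its differences were 0.09, 0.87 and 1.35 at 20, 30 and 100 mg/kg/day. Gpx2, a glutathione peroxidase, rose by 3.05, 4.18 and 2.75 at 20, 30 and 100 mg/kg/day at 336 h. The count at 10 mg/kg/day was 1 without study 1 vehicle replicate 2, that at 30 mg/kg/day for 24 h was 3 without study 1 vehicle replicate 1, and that at 20 mg/kg/day was 7 without study 2 vehicle replicate 3. The gene lower at 20 mg/kg/day was not called without study 2 vehicle replicate 2 or 4 or R1 20 replicate 3 or 4.

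The excess at 336 h over 24 h, again tested after the values had been seen, passed for Gpx2 at 30 mg/kg/day (3.22 ± 0.62, limma adjusted p = 0.0024) and for Tkt, the transketolase of the pentose phosphate pathway, at 100 mg/kg/day (1.50 ± 0.36, adjusted p = 0.00633). For Gpx2 at 100 mg/kg/day it was 1.11 and did not pass (limma adjusted p = 0.400). Gpx2 was called higher at 24 h too, by 2.43 with R2 and by 1.64 at 100 mg/kg/day, the second call being lost without study 1 vehicle replicate 2 or 3 or R1 100 replicate 2 or 3 (adjusted p up to 0.159). For Gclc the difference at 336 h minus that at 24 h was -0.98 at 30 and -1.02 at the higher dose (limma adjusted p = 0.204 and 0.0691).

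**Figure D3:**
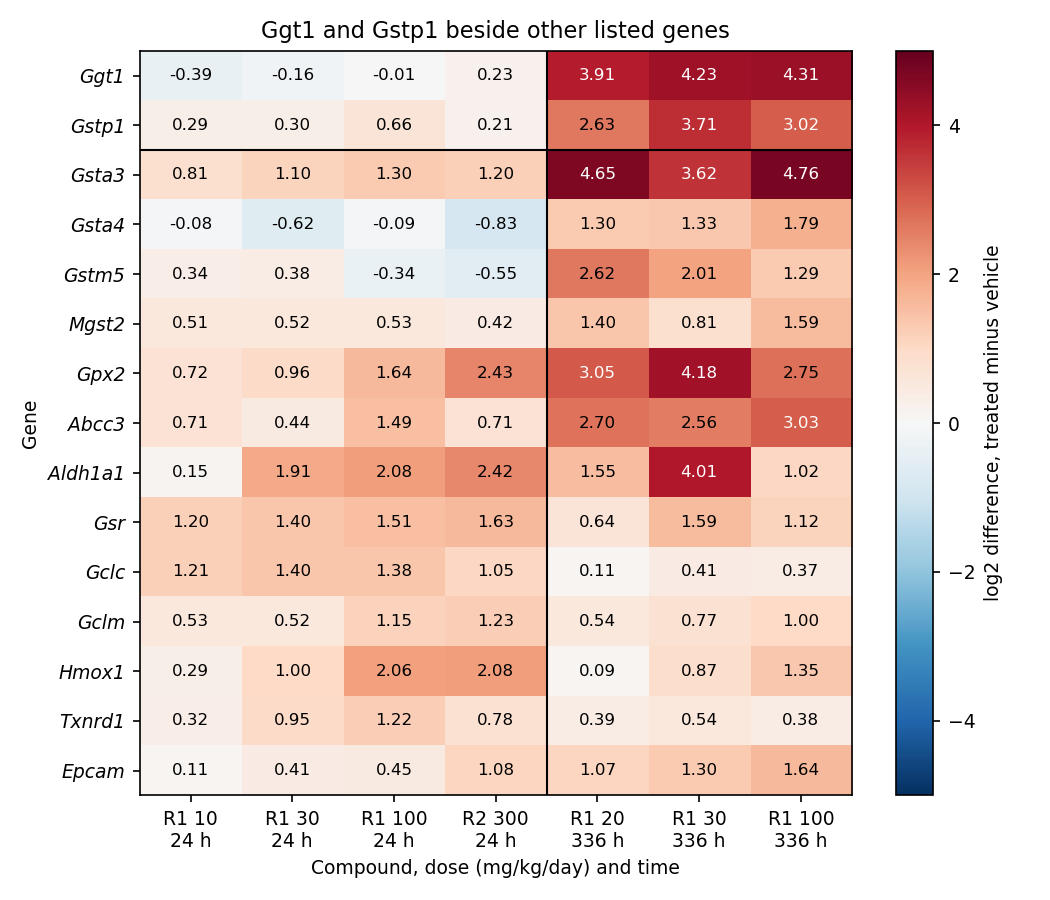
Differences from the vehicle of the same study (log2, colour scale) for Ggt1, Gstp1 and genes of the glutathione and NRF2 lists and Epcam in the 7 comparisons. In the 336 h columns Ggt1, Gstp1 (AI012589) and Gsta3 lie between 2.63 and 4.76, and Gpx2 and Abcc3 between 2.56 and 4.18, while Gclc is between 1.05 and 1.40 in the 24 h columns.

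Other genes known to be high in altered foci, nodules or tumours of rat liver rose in part. Of 17 tested, limma called 4, 4 and 6 higher and none lower after 336 h of R1 at 20, 30 and 100 mg/kg/day, and 7 higher and none lower after 24 h of R2. Over all genes 2.52%, 5.01% and 4.95% were higher at 336 h and 6.63% with R2, and 1.76%, 5.93% and 5.01% were lower at 336 h and 8.79% with R2. At an unadjusted p under 0.05, 0, 1 and 0 were lower at 336 h and 2 with R2. After 24 h of R1, 1, 1 and 4 were higher at 10, 30 and 100 mg/kg/day, against 0.758%, 1.14% and 3.19% of all genes. The count at 10 mg/kg/day was 0 without any 1 of study 1 vehicle replicates 1, 2 and 3 or R1 10 replicates 1 and 2. That at 30 mg/kg/day was 0 without study 1 vehicle replicate 1 or 2 or any replicate of R1 30. That at 100 mg/kg/day was 2 without study 1 vehicle replicate 2 or 3 or R1 100 replicate 2 or 3. The called genes at 336 h include Abcc3 (2.70, 2.56 and 3.03), Gpx2, Ephx1, the microsomal epoxide hydrolase (1.90, 1.76 and 1.98), and Akr7a3, an aldehyde reductase (2.43, 1.54 and 1.80), all of which are on the NRF2 list too. Afp, the fetal serum protein, had -0.14, -0.53 and 0.35, and Aldh3a1, an aldehyde dehydrogenase of rat liver tumours, -0.18, -0.19 and -0.32, and neither was called.

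**Figure D4:**
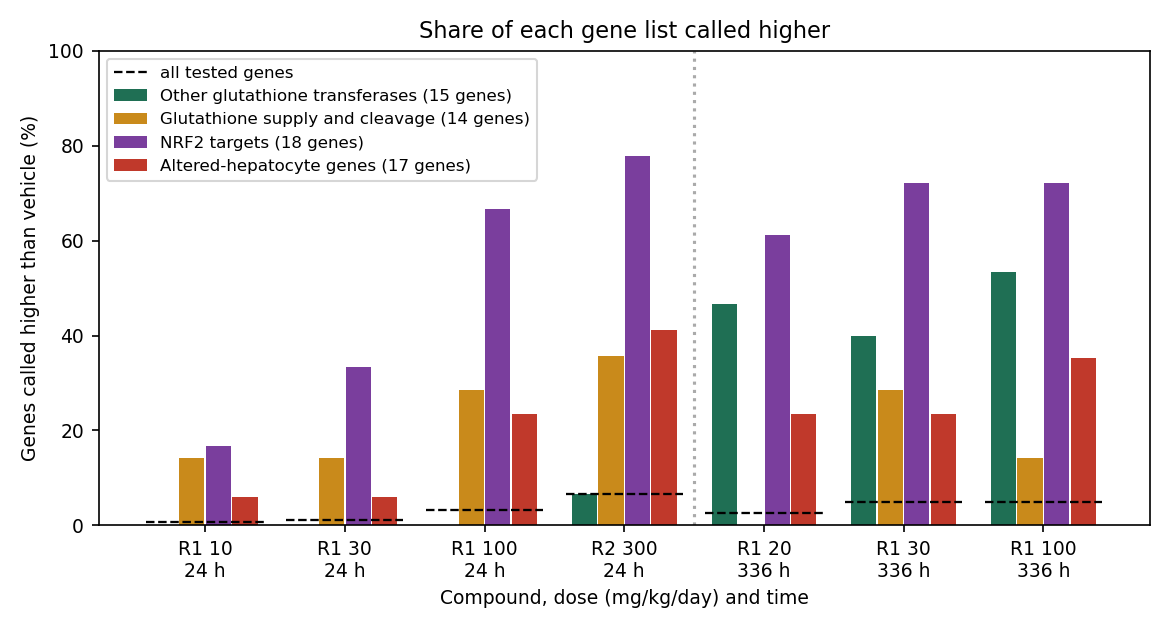
Share of tested genes called higher than vehicle by limma (percent, y axis) for 4 gene lists and for all genes in the 7 comparisons (x axis). The transferases are at 0 in the 24 h groups of R1 and at 7, 6 and 8 of 15 in the 336 h groups, and the NRF2 targets are above all genes at both times.

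A list of promoter factor genes, not limited to factors of the elements marked above, showed few changes in RNA. Of 11 tested, none was called higher in any of the 7 comparisons by limma, and at an unadjusted p under 0.05 between 0 and 2 were. Over all genes 0.758% to 6.63% were called higher in these comparisons, so none of 11 is near that share. Without study 4 vehicle replicate 1 or R2 replicate 4, 1 was called higher with R2. Those called lower were 1 with R2 and 1, 2 and 0 at 20, 30 and 100 mg/kg/day for 336 h. Of all genes 8.79% were lower with R2 and 1.76%, 5.93% and 5.01% at 336 h, so 1 of 11 with R2 is near that share. The gene lower with R2 was Cebpa (-0.84 ± 0.21, limma adjusted p = 0.00365). Jun, a component of AP-1, fell by 1.39 ± 0.30 (SE, log2, adjusted p = 0.00176) at 20 mg/kg/day for 336 h. At 100 mg/kg/day for 336 h Jun had 0.34 and did not pass, and 100 minus 20 mg/kg/day passed limma's test at 1.73 (adjusted p = 5.77e-05). After 24 h at 100 mg/kg/day Jun had 1.12 (limma adjusted p = 0.0531). Nfe2l2, which encodes NRF2, was lower by limma at 30 mg/kg/day for 336 h (-0.82 ± 0.24, adjusted p = 0.0158), a call lost without R1 30 replicate 1 or 4 or study 3 vehicle replicate 4 (adjusted p up to 0.0709).

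Because bile duct cells carry Ggt1 and Gstp1, their markers are given beside these results. None of the 10 tested markers of 16 listed was at 0 on any array. Their summed signal was 173 to 236 with R1 at 20 and 201 to 310 at 100 mg/kg/day, against 162 to 225 in study 2 vehicle livers. It was 263 to 365 at 30 mg/kg/day, against 141 to 250 in study 3 vehicle livers. With R2 for 24 h it was 214 to 308, against 176 to 190 in vehicle livers. Single genes weigh heavily in this sum. Epcam averaged 86.8 at 100 mg/kg/day against 25.6 in study 2 vehicle livers, and 96.2 at 30 against 38.1 in study 3. Cd24 averaged 49.1 at 30 mg/kg/day against 12.5. The list's median log2 difference was 0.03, 0.19 and 0.26 at 20, 30 and 100 mg/kg/day for 336 h, and 0.21 with R2.

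Of the 10 bile duct markers, limma called 1, 2 and 1 higher and none lower at 20, 30 and 100 mg/kg/day for 336 h and 1 higher with R2, against 2.52%, 5.01%, 4.95% and 6.63% of all genes higher. The shares of all genes lower were 1.76%, 5.93% and 5.01% at 336 h. Unadjusted p-values under 0.05 marked 1, 0 and 1 as lower at 336 h. Epcam, an epithelial adhesion molecule, rose by 1.30 ± 0.30 (SE, log2, adjusted p = 0.00185) at 30 and 1.64 ± 0.31 (adjusted p = 0.000175) at 100 mg/kg/day. Its calls at 20 mg/kg/day (1.07 ± 0.30, adjusted p = 0.0253) and with R2 (1.08 ± 0.30, adjusted p = 0.00845) were lost without study 2 vehicle replicate 1 or R1 20 replicate 1 (up to 0.190) and without study 4 vehicle replicate 1 (0.0627). Both calls were also lost with the replicate number as a block (0.0658 and 0.0553), and that at 20 mg/kg/day with study 2 fitted alone (0.0557). Cd24 rose by 1.56 ± 0.36 at 30 mg/kg/day (adjusted p = 0.00226). The duct keratin Krt19 had differences of -0.33, 0.16 and 0.25, and Spp1, osteopontin, -0.75, 0.05 and -0.64, at 20, 30 and 100 mg/kg/day, without a call. The part of bile duct cells in the Ggt1 and Gstp1 signal was not tested.

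Deviations from group means gave r = -0.178 between Ggt1 and the bile duct markers (permutation p = 0.248, adjusted p = 0.248, rho = -0.173) and r = 0.219 between Gstp1 and the same markers (permutation p = 0.154, adjusted p = 0.231, rho = 0.225), over 44 arrays. Without the 2 farthest arrays the values were -0.036 and 0.211. Ggt1 was under the filter level on 31 of these arrays, so its r says little about covariation with the markers. Within studies 1, 2, 3 and 4 it was 0.095, 0.021, -0.721 and -0.099, and for Gstp1 0.341, 0.335, 0.026 and 0.266, with no test. Over the 13 arrays of rats given R1 for 336 h, r was -0.120 for Ggt1 and 0.079 for Gstp1, also with no test.

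Of 11 hepatocyte markers tested, 0, 1 and 1 were called higher and 2, 4 and 3 lower at 20, 30 and 100 mg/kg/day for 336 h, against 1.76%, 5.93% and 5.01% of all genes lower. Of 8 genes of dividing cells, limma called none in either direction in these 3 comparisons, and none had an unadjusted p under 0.05. Of 3 Kupffer cell markers tested, 1, 1 and 1 were called lower and 0, 0 and 1 higher at these doses. Called lower were 0, 2 and 0 of 7 stellate, 0, 1 and 1 of 4 endothelial and 0, 1 and 1 of 7 blood cell markers, and none was higher. Over all genes 2.52%, 5.01% and 4.95% were higher and 1.76%, 5.93% and 5.01% lower. At limma's unadjusted p under 0.05, 6, 4 and 4 hepatocyte markers were lower and 0, 1 and 1 higher. Stellate markers lower by that measure were 3, 2 and 2, with list medians of -0.36, -0.35 and -0.54, and none was higher. For endothelial markers 1, 1 and 2 were lower, for blood cell markers 0, 2 and 2 and for Kupffer cell markers 1, 2 and 1. The only higher one of these was a Kupffer cell marker at 100 mg/kg/day. Whether cell numbers changed was not tested.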

How the data were processed

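Per the labels' protocols, RNA from liver slices was extracted with RNeasy, labelled as biotinylated cRNA and hybridised to Affymetrix rat arrays. The deposited intensity values, on a linear scale, came from MAS5, per the submitters' processing notes. Its version and scaling target are not given in the sources used here. All 44 arrays had identical sorted values (largest difference 0), so they had been quantile normalized, a step the labels do not record; differences shared by all genes of a liver cannot be seen. No detection calls were used, and precision rests on how many arrays each group had.

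Symbols came from the platform annotation: 7006 probe sets had 1, 308 several and 1426 none, and 59 control probe sets were left out. Values were tested as log2(signal + 2.9), 2.9 being the 20th percentile of all values, with limma 3.58.1 in R 4.3.3 (1 mean per group, trended eBayes, all 11 groups sharing 1 spread with 33 residual degrees of freedom). Fold changes on this scale understate those of low signals. A probe set was tested if a group mean reached 9.17, and p-values were 2-sided and adjusted by Benjamini-Hochberg over 6361 probe sets within each comparison; called means an adjusted p under 0.05. In list counts a gene stands by its brightest tested probe set, and in the ranking of correlated genes by its most correlated one. Named genes are the members, up to 4 called genes a direction of each list by size, and the 10 most correlated with each member; Afp, Aldh3a1 and the bile duct markers were named after their values were seen. The members and lists were chosen with earlier results of these data known. Correlations used permutation tests with 100000 resamples. The fit was tested on simulated data. Alternatives were another offset, arrays centred on their median, no filter, no trend, each study alone, the mean over a gene's probe sets, a replicate block and leaving out each array. Promoters were read from RefSeq's GRCr8 table.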

Additional observations from a re-analysis of the deposited data

Results flagged for a closer look

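In all, 24 combinations of a probe set and a group with 4 or more arrays were checked for a single array far from the rest, a check that marks about 1 in 20 groups by chance. In rats given R1 at 30 mg/kg/day for 336 h, replicate 3 had the highest Ggt1 signal (125.5) and stood apart from the other 3 arrays. In study 3 vehicle livers, replicate 3 had the highest Ggt1 signal (4.1), still under the filter level. Without these arrays the log2 difference at 30 mg/kg/day was 4.06 and 4.37.

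Some listed genes had a different response to R1 at 336 h than at 24 h by limma's test of the difference between both responses (log2, 336 h minus 24 h), a test chosen after the values had been seen. The 2 times came from different studies, so time and study cannot be told apart. At 30 mg/kg/day these were Gpx2 (3.22), Gsta3 (2.53), Abcc3 (2.12), Aldh1a1, a retinal dehydrogenase (2.1), and Gsta4 (1.96). For Aldh1a1 the order was reversed with R1 at 100 mg/kg/day, with differences from vehicle of 2.08 at 24 h and 1.02 at 336 h. This reversed change was not called. The mean vehicle signal of Aldh1a1 was 222.4 in study 1, 196.6 in study 3 and 780.6 in study 2, the source of the 1.02. The call of Aldh1a1 was lost without study 1 vehicle replicate 1 or 3 or R1 30 replicate 3 at 24 h (adjusted p up to 0.0768). The call of Abcc3 was lost without study 1 vehicle replicate 1, R1 30 replicate 1 at 24 h or R1 30 replicate 3 at 336 h (adjusted p up to 0.0804), and that of Gsta3 without study 1 vehicle replicate 1 or 3 or R1 30 replicate 3 at either time (up to 0.125). With the 5th percentile as offset the call of Abcc3 was lost too (limma adjusted p = 0.107).

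At 100 mg/kg/day the genes with a higher difference at 336 h were Gsta3 (3.46), Gsta4 (1.89), Tkt (1.5), Cth (1.31), the transferase Gstk1 (1.14) and the microsomal transferase Mgst2 (1.06). Those with a lower difference were Slc3a2, the heavy chain of amino acid exchangers (-1.58), Hpgds, a prostaglandin D synthase of the transferase family (-1.31), and Cbr1, a carbonyl reductase (-2.18). The call of Cth was lost without study 1 vehicle replicate 1 or 2, R1 100 replicate 1 at 24 h, study 2 vehicle replicate 2 or 4 or R1 100 replicate 2 or 4 at 336 h (adjusted p up to 0.116). That of Hpgds was lost without study 1 vehicle replicate 1 or 2, any R1 100 array at 24 h, study 2 vehicle replicate 1, 2 or 4 or R1 100 replicate 3 or 4 at 336 h (up to 0.252). That of Cbr1 was lost without any vehicle array of either study, any R1 100 array at 24 h or R1 100 replicate 1 or 2 at 336 h (up to 0.11), and that of Slc3a2 only with the mean over its probe sets. Without the filter the calls of Cbr1 and Hpgds were lost (limma adjusted p = 0.0719 and 0.0703). Cbr1 was also lost with the 5th percentile offset (0.0701) or no trend (0.0589). Hpgds was also lost with the 40th percentile offset (0.0517) or the mean over its probe sets (0.29).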

How the results depend on the processing

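The distance of Ggt1 from vehicle was set in part by the offset, because its vehicle signals were low. With the 5th percentile as offset the log2 differences were 4.67, 5.01 and 5.09 at 20, 30 and 100 mg/kg/day for 336 h, and 5.26 and 5.11 for the excess over 24 h at 30 and 100 mg/kg/day. With the 40th percentile they were 2.82, 3.12, 3.19, 3.20 and 3.20. The Gstp1 differences moved by less than the spread between arrays. The mean over a gene's probe sets changed 10 counts of called genes. It gave 2 higher in the glutathione supply list at 20 mg/kg/day, 1 higher transferase at 30 and at 100 mg/kg/day for 24 h, and 2 and 0 lower ones at 30 and 100 mg/kg/day for 336 h. It also gave 1 lower altered-hepatocyte gene and 1 higher factor with R2, 1 higher and 1 lower factor at 100 mg/kg/day for 24 h, and 1 lower factor at 30 mg/kg/day for 336 h. Fitting each study alone gave 1 lower supply gene and 0 lower NRF2 targets at 20 mg/kg/day, 0 higher and 3 lower transferases with R2 and 2 lower at 30 mg/kg/day for 336 h. Without the trend, 0 altered-hepatocyte genes were called at 10 and at 30 mg/kg/day for 24 h, and the 5th percentile offset gave 1 higher factor at 100 mg/kg/day for 24 h. The within-group r of Ggt1 and Gstp1 was 0.36 without the 2 farthest arrays.

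Same-numbered arrays of different groups of a study deviated together little (38 pairs, r from -0.09 to 0.154, median 0.036, against -0.017 for 121 other pairs). An r over 0.1 was seen in 4 of the 38 and 7 of the 121 pairs. Pairing by number was not tested, and the main fit treated the samples as unpaired. With the replicate block, 2 altered-hepatocyte genes were higher at 30 mg/kg/day for 24 h in place of 1, and no other count of the 5 gene lists outside the cell type markers moved by over 1.5 times. The block also ended the calls of Epcam at 20 mg/kg/day for 336 h (adjusted p = 0.0658) and with R2 (0.0553), which were the only bile duct markers called there, and that of Ahcy with R2 (0.0654).

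Leaving out single arrays kept the 336 h differences of Ggt1 between 3.76 and 4.54 and those of Gstp1 AI012589 between 2.52 and 3.85. The vehicle difference of Ggt1 between studies 3 and 2 ranged from -0.12 to 0.07, and was -0.08 without study 2 vehicle replicate 4 and -0.12 without study 3 vehicle replicate 3. Counts ranged as follows. In the glutathione supply list 1 to 2 were higher at 10 mg/kg/day for 24 h, and 0 to 1 higher and 1 to 2 lower at 20 mg/kg/day. Among transferases at 24 h, 0 to 1 were higher and 0 to 1 lower at 30 mg/kg/day, 0 to 2 higher and 0 to 1 lower at 100 mg/kg/day, and 0 to 2 higher and 3 to 6 lower with R2. Among NRF2 targets 1 to 3 were higher at 10 and 3 to 6 at 30 mg/kg/day for 24 h, and 7 to 10 higher and 0 to 1 lower at 20 mg/kg/day for 336 h. Among altered-hepatocyte genes 0 to 1 were higher at 10 and at 30 and 2 to 4 at 100 mg/kg/day for 24 h. Among factors 0 to 1 were higher with R2 and 1 to 2 lower at 30 mg/kg/day for 336 h. The causes of these changes were not tested. Ggt1 signals under the filter level have no reliable order, which limits any statement on its 24 h and vehicle levels.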
